A study of Mus musculus with 12 samples.

Results

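A set of 9 genes of choline and phosphatidylcholine metabolism was followed in mammary tumours of mice with and without the protein kinase Hunk, out of 12394 genes named on the array. They were taken by gene symbol, and 17 probe sets carried the symbol of exactly 1 of the 9 genes. The members cover the phosphorylation of choline (Chka, Chkb), the cytidylyl transfer (Pcyt1a, Pcyt2), the transfer of the head group (Chpt1, Cept1), methylation (Pemt), acyl chain remodelling (Lpcat1) and oxidation (Chdh). The members were selected on the log2 difference between knockout and wild type in these same arrays, so the members' differences below are a description and carry no test.

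The tumours came from female FVB mice with a c-myc transgene under the mouse mammary tumour virus promoter, which is active mainly in mammary epithelium. Of the 12 arrays, 6 held tumours of the genotype MMTV-c-myc/Hunk KO, in which a neomycin cassette flanked by loxP sites stands in place of the first exon of Hunk and its presumed promoter, and 6 held tumours of the genotype MMTV-c-myc/Hunk WT. The females had been mated before tumours were collected, and no age was given in the sources used here. A numbered tumour below is the sample on 1 array. Separate mice are not stated for the arrays, so p-values measure only the spread among these samples, which may be technical. The values are log2 signals, each signed difference is knockout minus wild type. Precision is limited by there being 12 arrays.

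The array medians lay between 3.87 and 4.10. Hunk itself was above array background in 0 of 6 knockout and in 4 of 6 wild-type tumours. The lowest wild-type value, 2.99, was below the highest knockout value, 3.06. Whether the Hunk probes lie inside the deletion is unknown here, so this is no firm check of the labels. Array background was the highest signal of 27 Bacillus control probe sets, and averaged 3.71 ± 0.15 in the knockout and 3.60 ± 0.10 in the wild type (SD, n = 6 each). The epithelial adhesion gene Epcam averaged 11.72 ± 0.35 in the knockout and 11.91 ± 0.18 in the wild type (SD, n = 6 each). Knockout tumours 4 and 5 were the closest pair of arrays, with an SD of 0.338 for their difference over probe sets against 0.531 for the next pair.

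Phosphatidylcholine is the main phospholipid of animal membranes and is also present in the membrane that surrounds milk fat globules. In most tissues it is made from choline in the Kennedy pathway, by phosphorylation, activation with CTP, and transfer to diacylglycerol. Choline can instead be oxidised to betaine, a methyl donor, and the fatty acids of finished phosphatidylcholine are exchanged through lysophosphatidylcholine. Raised choline kinase and phosphocholine are known features of many carcinomas, including those of the breast.

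Chka, Chpt1 and Chdh were higher in the knockout and Lpcat1 was lower, and in each of the 4 the groups did not overlap. Chkb, Pcyt1a, Pcyt2 and Cept1 overlapped between the groups, and Pemt was at background on every array. In the limma fit over 6825 genes, 3 of the 8 members tested were past the threshold as higher and 1 as lower, where 1.66% of all genes tested were past it as higher, 1.68% as lower and 3.34% in either direction. At the level of probe sets, 14 of the 17 were tested and 9 were past the threshold, against 2.46% of all probe sets tested. The groups did not overlap in 4 of the 8 genes, against 3.15% of all genes tested. These shares are given only as the background, because the members were chosen with this contrast known. The median log2 difference was 0.19 over the 8 members and 0.01 over all genes tested. Over all genes tested, 113 were higher and 115 lower, a split that became 68 and 126 when each array was centred on its median. The plot of the 9 genes by tumour shows these levels.

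**Figure D1:**
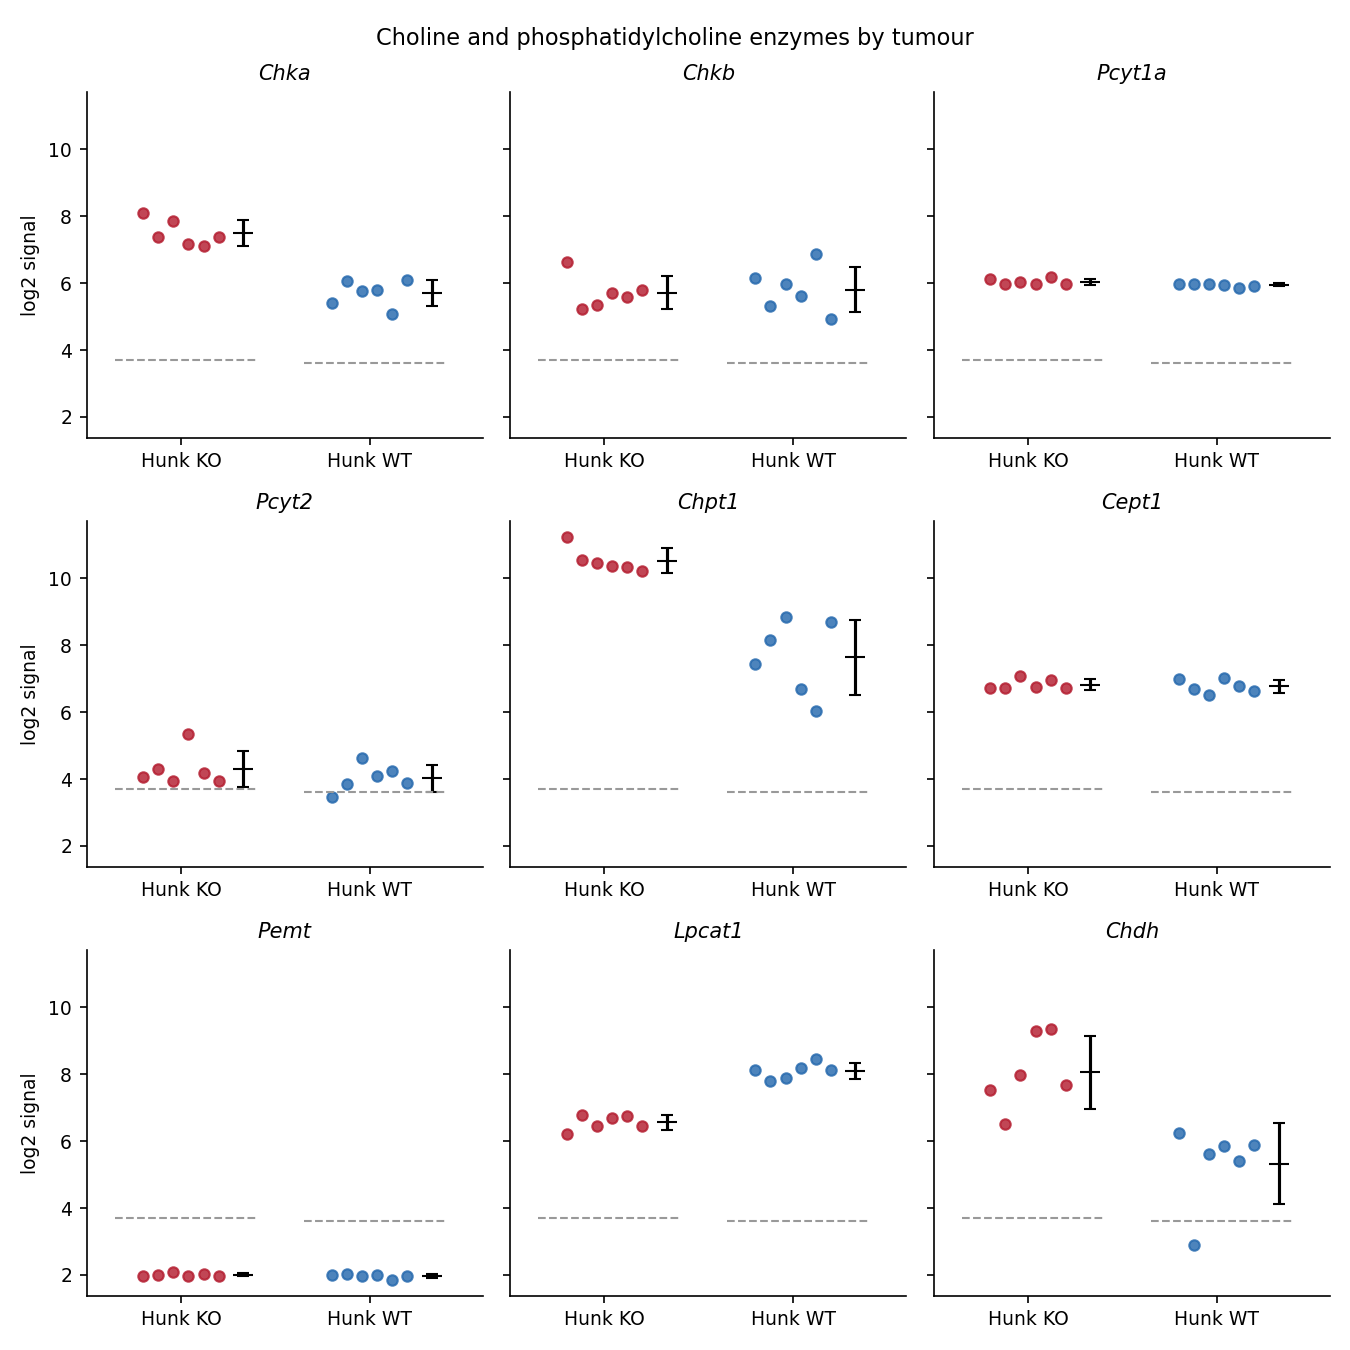
Log2 signal (vertical axis) of each of the 9 genes in 6 Hunk KO tumours (red, left) and 6 Hunk WT tumours (blue, right), from the probe set of highest mean. The black bar is the mean ± SD and the dashed line the mean array background of the group. Chka, Chpt1 and Chdh lie higher in the knockout with no overlap, Lpcat1 lies lower with no overlap, and Pemt lies under the background in both groups.

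The sequences upstream of the annotated starts of the 4 genes whose groups did not overlap are shown. The tumours of both genotypes carried the Myc transgene, and Myc is a factor that binds the E-box. Whether Myc or any other factor regulates these genes was not tested. Each stretch holds the 250 bases before a start, 5′ to 3′ on the gene's strand, from RefSeq on GRCm38.p6, and capitals mark the GC box GGGCGG or its reverse complement CCGCCC. For Chdh, which has several annotated starts, the most upstream one is shown, and which start the tumours used was not measured.
Chpt1: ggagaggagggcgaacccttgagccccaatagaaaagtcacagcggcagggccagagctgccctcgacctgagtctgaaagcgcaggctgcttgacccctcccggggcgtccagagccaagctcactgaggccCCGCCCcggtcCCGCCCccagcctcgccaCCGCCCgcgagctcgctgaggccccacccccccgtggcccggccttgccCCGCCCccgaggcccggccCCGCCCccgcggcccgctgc
Chka: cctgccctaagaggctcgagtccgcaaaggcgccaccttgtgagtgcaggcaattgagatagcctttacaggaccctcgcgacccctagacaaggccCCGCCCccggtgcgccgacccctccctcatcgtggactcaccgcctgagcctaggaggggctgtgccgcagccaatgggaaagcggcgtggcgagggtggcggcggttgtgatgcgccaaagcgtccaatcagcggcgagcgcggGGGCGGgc
Chdh: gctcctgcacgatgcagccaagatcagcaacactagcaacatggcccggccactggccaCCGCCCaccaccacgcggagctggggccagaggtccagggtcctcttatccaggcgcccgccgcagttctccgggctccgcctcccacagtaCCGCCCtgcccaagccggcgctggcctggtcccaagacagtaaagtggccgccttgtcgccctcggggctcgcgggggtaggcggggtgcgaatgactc
Lpcat1: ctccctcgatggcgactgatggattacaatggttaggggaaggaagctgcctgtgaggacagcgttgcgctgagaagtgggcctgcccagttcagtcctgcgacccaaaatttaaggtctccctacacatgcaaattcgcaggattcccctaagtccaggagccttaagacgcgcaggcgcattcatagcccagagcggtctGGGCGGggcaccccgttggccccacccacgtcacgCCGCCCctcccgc

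The Chpt1 stretch lies at chr10:88503971-88504220 on the minus strand, that of Chka at chr19:3851523-3851772, that of Chdh at chr14:30008750-30008999 and that of Lpcat1 at chr13:73466981-73467230, the last 3 on the plus strand. The table held 15 starts of 8 of the 9 members. The E-box CACGTG, which reads the same on both strands, was in 0 of these 15 windows, and in 6.02% of all 32851 windows of the same length in the table. The GC box was in 9 of the 15 windows, and in 32.7% of all windows. Some windows of Pcyt1a and of Cept1 overlap and count the same boxes, so the 15 are not independent. The shares were not compared by a test. Chpt1 held 5 GC boxes within 250 bases, and Chka, Chdh and Lpcat1 held 2 each. The stretches shown hold 23 CpG sites in Chpt1, 24 in Chka, 20 in Chdh and 16 in Lpcat1, where the median of all windows was 6. The other 2 starts of Chdh held 0 GC boxes and 2 CpG sites each, and Chkb, Pcyt1a and Cept1, whose groups overlapped, also had starts with the GC box. A match is a description of the letters and not a site of binding.

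Choline kinase commits choline to the Kennedy pathway by phosphorylating it, and the alpha isoform is the one known to be raised in tumours. Chka (1450264_a_at) ranged from 7.12 to 8.09 with a median of 7.38 in knockout tumours, and from 5.08 to 6.11 with a median of 5.78 in wild-type tumours. The lowest knockout tumour (5) was 1.01 above the highest wild-type tumour (6). The means were 7.50 ± 0.39 in the knockout and 5.71 ± 0.40 in the wild type (SD, n = 6 each), a log2 difference of 1.79 (SE 0.22), or 3.47-fold higher in the knockout.

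The beta isoform did not follow. Chkb (1448448_a_at) ranged from 5.23 to 6.63 in knockout tumours and from 4.92 to 6.86 in wild-type tumours, so that the groups overlapped over nearly their whole range. Its log2 difference was -0.09 (SE 0.32), and the wild-type tumours were the more spread, with an SD of 0.68 against 0.50 in the knockout. Another probe set is annotated to Chkb together with its neighbour Cpt1b and the transcript Gm44502. It lay between 2.06 and 2.17 on the 12 arrays, below background on each, and cannot be given to 1 gene.

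Pcyt1a, the enzyme that activates phosphocholine with CTP and is usually held to set the pace of the Kennedy pathway, was close to level across the tumours. Its brightest probe set lay between 5.97 and 6.19 in the knockout and between 5.87 and 5.98 in the wild type, a log2 difference of 0.10 (SE 0.09). A second probe set differed by 0.14 (SE 0.08), and the other 2 were below background on all 12 arrays. The range over all 12 arrays was 0.32 for the brightest probe set, against 3.01 for Chka.

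Pcyt2, the matching enzyme for ethanolamine, was near background, with 5 of 6 knockout and 5 of 6 wild-type tumours above it. Knockout tumour 4 stood at 5.34 and the other knockout tumours between 3.93 and 4.31. Wild-type tumours lay between 3.45 and 4.63. The log2 difference was 0.28 (SE 0.25), and it was 0.07 without knockout tumour 4, so the value rests on that tumour.

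Chpt1 encodes cholinephosphotransferase 1, which joins activated choline to diacylglycerol in the last step of the pathway. On the probe set of highest mean, 1435446_a_at, knockout tumours ranged from 10.23 to 11.25 with a median of 10.41, and wild-type tumours from 6.05 to 8.85 with a median of 7.80. The highest wild-type tumour (3) stayed 1.38 below the lowest knockout tumour (6). Means were 10.54 ± 0.37 in the knockout and 7.64 ± 1.13 in the wild type (SD, n = 6 each), a log2 difference of 2.89 (SE 0.44), or 7.42-fold higher in the knockout.

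All 4 Chpt1 probe sets separated the groups. Their log2 differences were 2.89, 4.14 (SE 0.58), 2.91 (SE 0.49) and 3.78 (SE 0.26), or between 7.42-fold and 17.7-fold higher in the knockout, and so the direction was shared but the size was not. The probe sets read the same RNA of each tumour and are not replicates of the genotype. Within the wild type, tumour 3 was highest on all 4 and tumour 5 lowest on 3. On 1435446_a_at, for example, the 6 wild-type tumours had 7.43, 8.16, 8.85, 6.68, 6.05 and 8.69, in the order of their numbers. The probe set 1435870_at differed from this, with wild-type tumours 2, 4 and 5 all at 4.50 and the others at most 5.26. Knockout tumour 1 was the highest on 3 of the 4, at 11.70 on 1426146_a_at, where the other knockout tumours lay between 9.48 and 10.19.

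**Figure D2:**
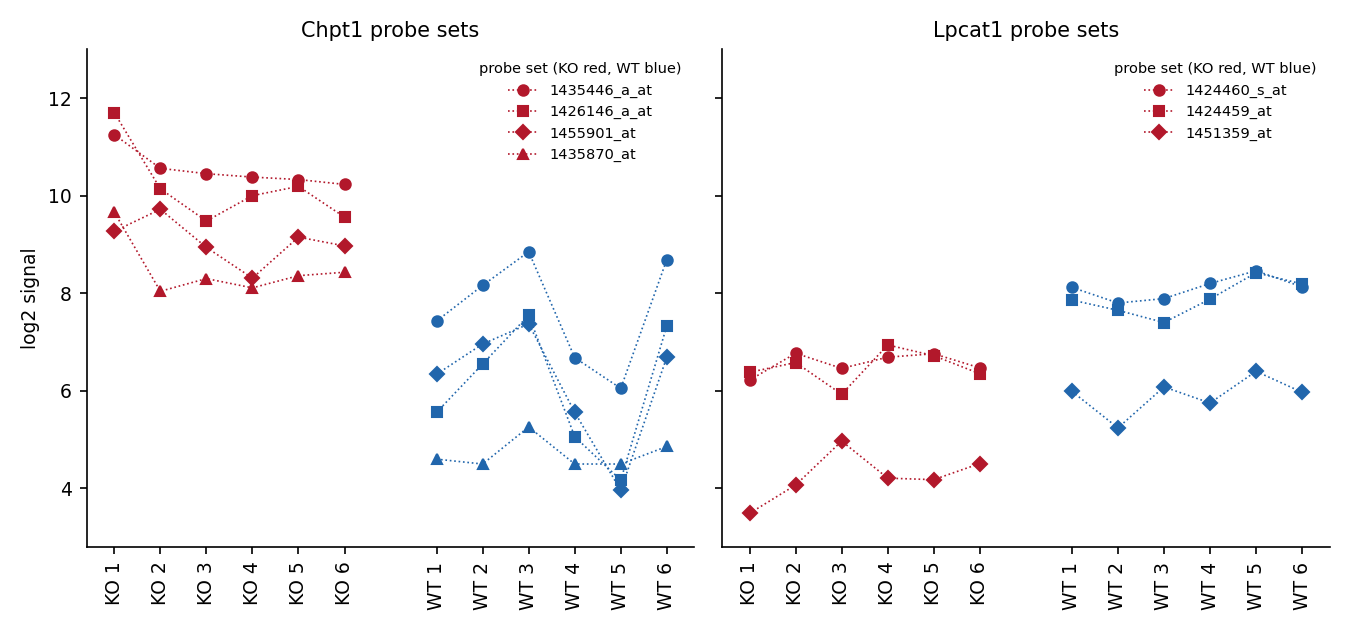
Log2 signal (vertical axis) of the 4 Chpt1 probe sets (left) and the 3 Lpcat1 probe sets (right) in each KO (red) and WT (blue) tumour. Each marker shape is 1 probe set, dotted lines only join its points, and levels are comparable within a probe set. Within each of the 4 Chpt1 probe sets every KO tumour lies above every WT tumour, and within each of the 3 Lpcat1 probe sets every KO tumour lies below.

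Cept1 encodes the second enzyme of this step, which accepts both activated choline and activated ethanolamine. Knockout tumours lay between 6.71 and 7.09 and wild-type tumours between 6.52 and 7.02, and the groups overlapped. The means were 6.83 ± 0.16 for the knockout and 6.78 ± 0.20 for the wild type (SD, n = 6 each), a log2 difference of 0.05 (SE 0.12). Pemt, which makes phosphatidylcholine by methylating phosphatidylethanolamine and is active mainly in liver, lay between 1.97 and 2.10 in the knockout and between 1.85 and 2.02 in the wild type. It was above background in 0 of 6 tumours of either group, failed the filter on mean signal, and is given no fold.

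Lpcat1, an acyltransferase that turns lysophosphatidylcholine back into phosphatidylcholine and is best known from lung surfactant, ran the other way. Its probe set of highest mean was 1424460_s_at, whose _s_at suffix means that it can match related transcripts. Knockout tumours ranged from 6.22 to 6.77 with a median of 6.58, and wild-type tumours from 7.80 to 8.46 with a median of 8.13. The highest knockout tumour (2) was 1.03 below the lowest wild-type tumour (also numbered 2). Means were 6.56 ± 0.22 in the knockout and 8.10 ± 0.23 in the wild type (SD, n = 6 each), and the log2 difference of -1.54 (SE 0.14) is a level 2.91-fold lower in the knockout. The 2 other probe sets, 1424459_at and 1451359_at, had differences of -1.42 (SE 0.20) and -1.67 (SE 0.24), again with no overlap. On 1451359_at knockout tumour 1, at 3.49, was below background. Of the 4 members past the threshold, Lpcat1 had the smallest SDs in both groups.

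Chdh, the mitochondrial choline dehydrogenase that starts the conversion of choline to betaine, was higher but variable. Knockout tumours 1 to 6 had 7.52, 6.53, 7.98, 9.29, 9.36 and 7.68, and wild-type tumours 1 to 6 had 6.26, 2.91, 5.62, 5.87, 5.42 and 5.90. Tumours 4 and 5 were the highest of the knockout and are the 2 arrays that lay closest together, and wild-type tumour 2 was below background. The groups were separated by only 0.27, between knockout tumour 2 and wild-type tumour 1. Means were 8.06 ± 1.09 in the knockout and 5.33 ± 1.22 in the wild type (SD, n = 6 each), with a log2 difference of 2.73 (SE 0.61), or 6.63-fold higher in the knockout. The gene has 1 probe set here, whose _s_at suffix means that it can match related transcripts. Chdh was no longer past the threshold without knockout tumour 3, 4, 5 or 6 or wild-type tumour 3, 4 or 5, nor with knockout tumours 4 and 5 averaged, nor with no filter on mean signal. Its log2 difference in the fits with 1 array left out was between 2.24 and 3.03.

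**Figure D3:**
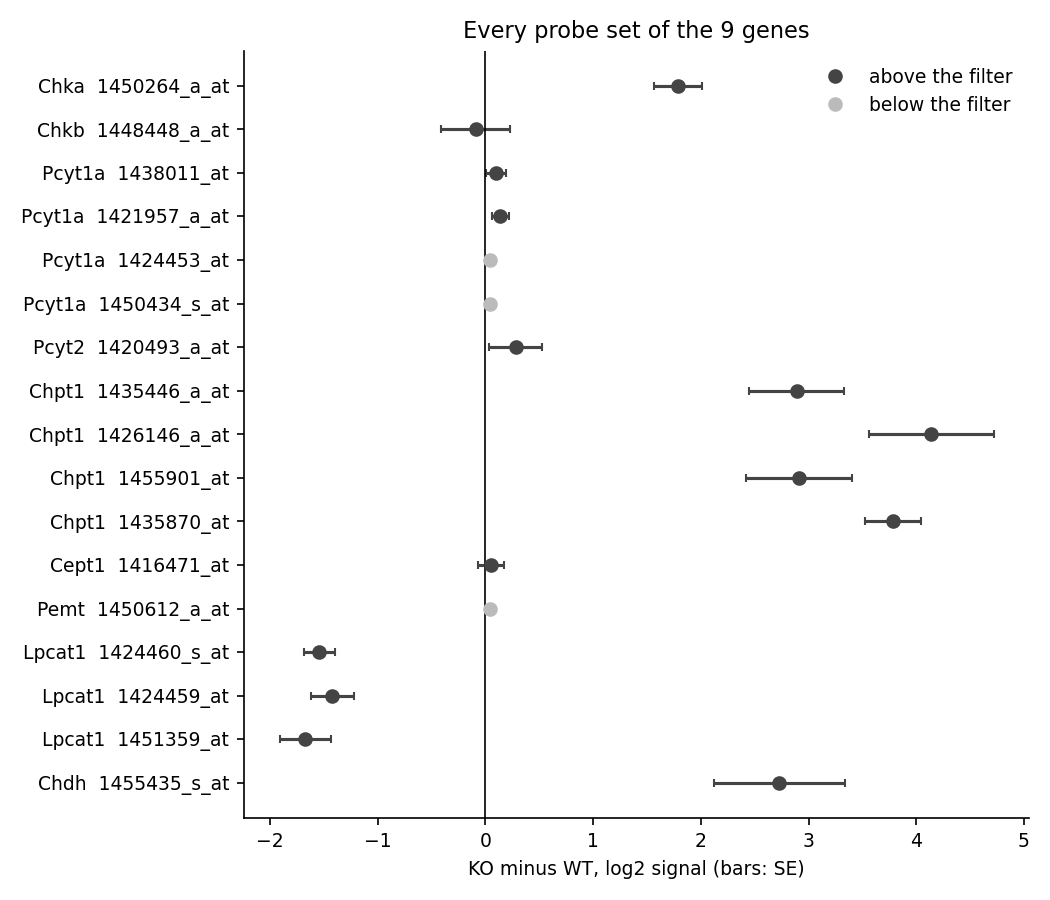
Log2 difference, KO minus WT (horizontal axis), with its SE as bars, for each of the 17 probe sets of the 9 genes. Dark points passed the filter on mean signal and pale points did not. The 4 Chpt1 probe sets lie between 2.89 and 4.14, the 3 Lpcat1 probe sets between -1.67 and -1.42, and those of Chkb, Pcyt1a, Cept1 and Pemt close to 0.

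Beside these genes, several measures of tissue and RNA averaged higher in the knockout. Their exact permutation p-values were 0.0649 or more after adjustment over 12 measures. In bulk tumour RNA, fewer cells of a type and less RNA per cell cannot be told apart. The log2 of the summed signal of 10 adipocyte markers ranged from 10.79 to 13.06 in the knockout and from 9.20 to 10.88 in the wild type, a difference of 1.50 (exact two-sided permutation p = 0.00649, and 0.0649 adjusted over 12 measures). Of these 10 markers, Plin4, Lipe, Cidec and Retn were below background on all 12 arrays, and the fat hormone gene Adipoq was above it only in knockout tumour 2, at 6.29. Thrsp, a lipid synthesis gene that mammary epithelium also expresses, gave 48.9% of the summed signal. Chka, Chpt1, Chdh and Lpcat1 kept their calls without knockout tumour 2. With the adipocyte sum as a covariate, Lpcat1 alone of the members was past the threshold, and of all 6825 genes 22 were, against 228 without a covariate. The log2 differences in that fit were 1.55 (SE 0.33) for Chka, 2.12 (SE 0.60) for Chpt1, 3.78 (SE 0.83) for Chdh and -1.46 (SE 0.22) for Lpcat1. With the sum taken without Thrsp, a choice made after seeing the data, Chka and Lpcat1 were past the threshold, as were 104 of all 6825 genes. The differences were then 1.80 (SE 0.33) for Chka and 2.87 (SE 0.66) for Chpt1.

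Luminal markers did not move as 1 list, and a measure of RNA quality averaged more in the knockout. The summed signal of 12 luminal markers ranged from 13.94 to 14.54 in the knockout and from 13.54 to 14.14 in the wild type (exact permutation p = 0.039, adjusted 0.125), with 3 of them, Esr1, Pgr and Foxa1, below background on all arrays. Of 8 luminal markers tested, 3 were past the threshold as higher. Krt18, the brightest marker of the sum, averaged 12.02 ± 0.63 in the knockout and 12.19 ± 0.67 in the wild type (SD, n = 6 each). Krt19 averaged 10.64 ± 1.45 in the knockout and 6.56 ± 2.20 in the wild type, and Elf5, a regulator of the alveolar lineage, 10.64 ± 0.60 in the knockout and 8.52 ± 1.30 in the wild type. The receptor gene Kit averaged 6.37 ± 2.26 in the knockout and 9.32 ± 0.66 in the wild type (SD, n = 6 each). With the luminal sum as a covariate Chka and Lpcat1 were past the threshold, as were 30 of all 6825 genes. Chpt1 then had a log2 difference of 2.90 (SE 0.58). For beta-actin, the excess of the 3′ over the 5′ control probe set, which grows as RNA degrades, ranged from 1.26 to 1.72 in the knockout and from 1.21 to 1.34 in the wild type (exact permutation p = 0.0108, adjusted 0.0649). Knockout tumour 1, at 1.26, was within the wild-type range of this measure, and the other knockout tumours, at 1.50 to 1.72, were above every wild-type tumour. Outside knockout tumour 1 the measure and the genotype therefore cannot be told apart. Knockout tumour 1 had the highest Chka of all tumours and the highest Chpt1 on 1435446_a_at, but not on 1455901_at. With this 3′ excess as a covariate, Chka, Chpt1 and Lpcat1 were past the threshold, with log2 differences of 2.05 (SE 0.33), 3.32 (SE 0.66) and -1.68 (SE 0.21). Of all 6825 genes, 72 were past it in that fit. The part that fat, luminal content and RNA quality have in the differences was not tested beyond these fits.

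Milk genes varied widely within both groups. The summed milk markers averaged 13.73 ± 2.32 in the knockout and 13.33 ± 1.09 in the wild type (SD, n = 6 each, exact permutation p = 0.697). The beta-casein gene Csn2 was at 13.67, 14.22 and 14.08 in knockout tumours 2, 3 and 6, and between 2.24 and 2.30 in knockout tumours 1, 4 and 5. Chpt1 was at 10.23 to 10.56 in the first of these sets of knockout tumours and at 10.33 to 11.25 in the second, and these ranges overlap. The wild type differed from this. Wild-type tumours 2, 3 and 6 had the highest Chpt1, at 8.16, 8.85 and 8.69, and the highest milk sums, at 14.98, 13.72 and 13.89. Csn2 was at 12.85 and 12.48 in wild-type tumours 2 and 3, but at 2.21 in wild-type tumour 6. A link between Chpt1 and milk genes was not tested. Chdh was highest in knockout tumours 4 and 5, which had the lowest milk sums, 11.16 and 11.03.

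**Figure D4:**
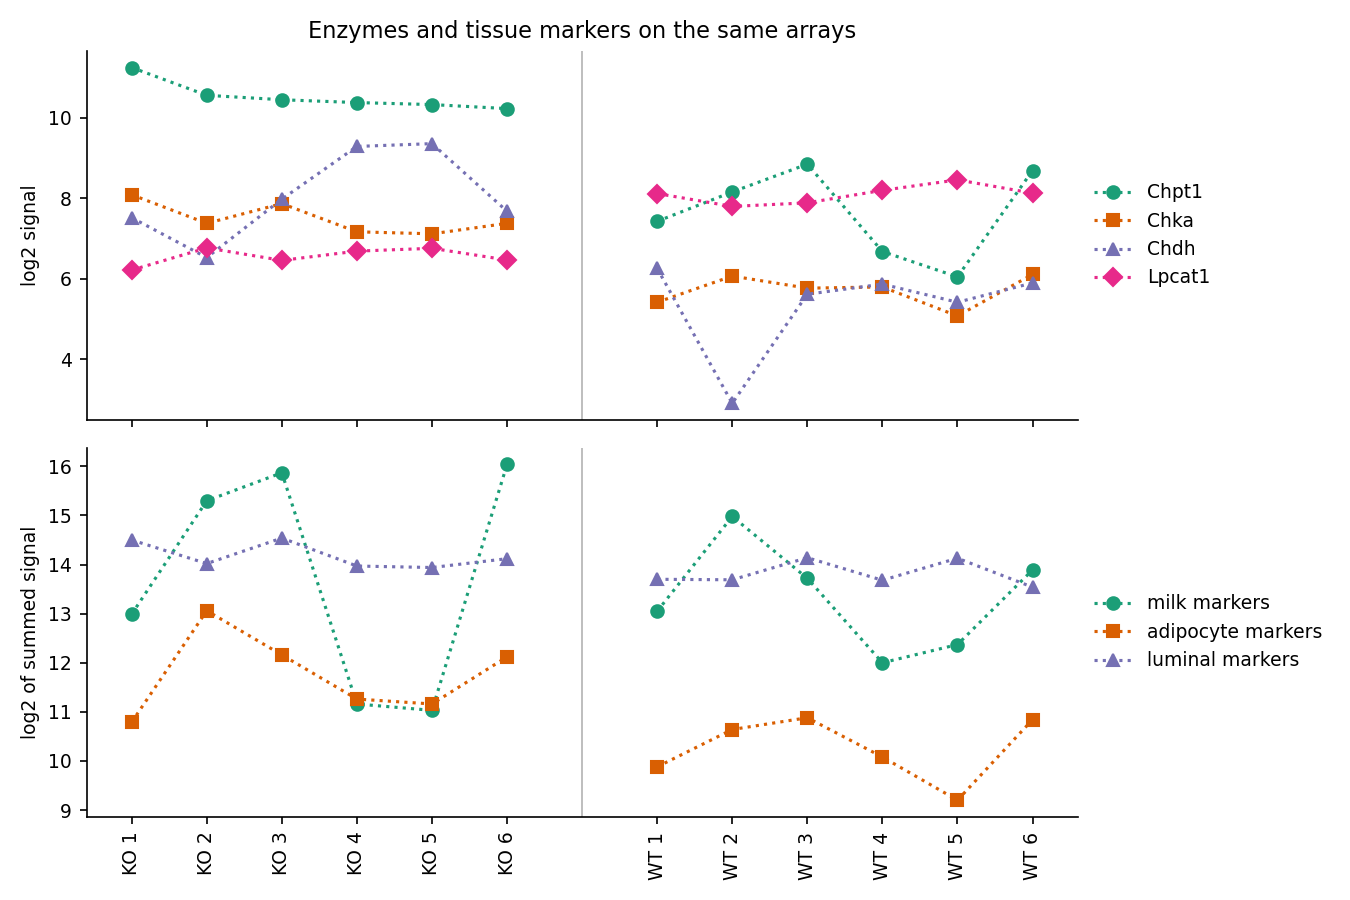
Upper panel, log2 signal of Chpt1, Chka, Chdh and Lpcat1 in each tumour, KO left of the grey line and WT right of it; lower panel, log2 of the summed signal of milk, adipocyte and luminal markers on the same arrays. Dotted lines only join the points of 1 measure. Chpt1 stays between 10.23 and 11.25 in the KO while the milk sum runs from 11.03 to 16.04. In the WT, tumours 2, 3 and 6 are the highest both for Chpt1 and for the milk sum.

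Other genes of choline and phospholipid metabolism showed how far the neighbouring steps differed. From 7 lists of 85 genes, none of them members, 65 were on the array and 46 were tested. Of the 46, 2 rose, 0 fell and 44 did not pass (limma, Benjamini-Hochberg adjusted over all 6825 genes). The 2 are 4.35% of the genes tested, against 1.66% of all genes called higher. At an unadjusted p under 0.05, 8 were higher and 3 lower. The median log2 difference over the 46 was 0.16, against 0.01 over all genes tested, and 32 of the 46 (69.6%) had a positive difference, against 50.8% of all genes. The 7 lists were chosen with earlier results of these data known, so these shares are a description and no test of the pathway.

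Gpcpd1 and Dgat1 were the genes that rose. Gpcpd1, a phosphodiesterase that releases choline from glycerophosphocholine, ranged from 5.57 to 6.08 in knockout tumours and from 4.23 to 5.00 in wild-type tumours, with no overlap. It was 1.94-fold higher in the knockout (log2 difference 0.96, SE 0.14, limma adjusted p = 0.00458, between 0.0028 and 0.101 over the alternatives). Dgat1, which uses diacylglycerol to make triglyceride and so draws on the substrate of Chpt1, averaged 8.74 ± 0.67 in the knockout, with a highest value of 9.72, and 6.75 ± 0.82 in the wild type, with values from 5.52 to 7.91 (SD, n = 6 each). It was 3.96-fold higher (log2 difference 1.99, SE 0.40, limma adjusted p = 0.0222, between 0.0139 and 0.189 over the alternatives), and the groups did not overlap. Dgat1 has 1 probe set here, and its _s_at suffix, like that of Chdh, means that it can match related transcripts. Without wild-type tumour 4 the limma adjusted p of Dgat1 was 0.0564. With the replicate number of the labels as a block, adjusted p was 0.0592 for each of the 2 genes.

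**Figure D5:**
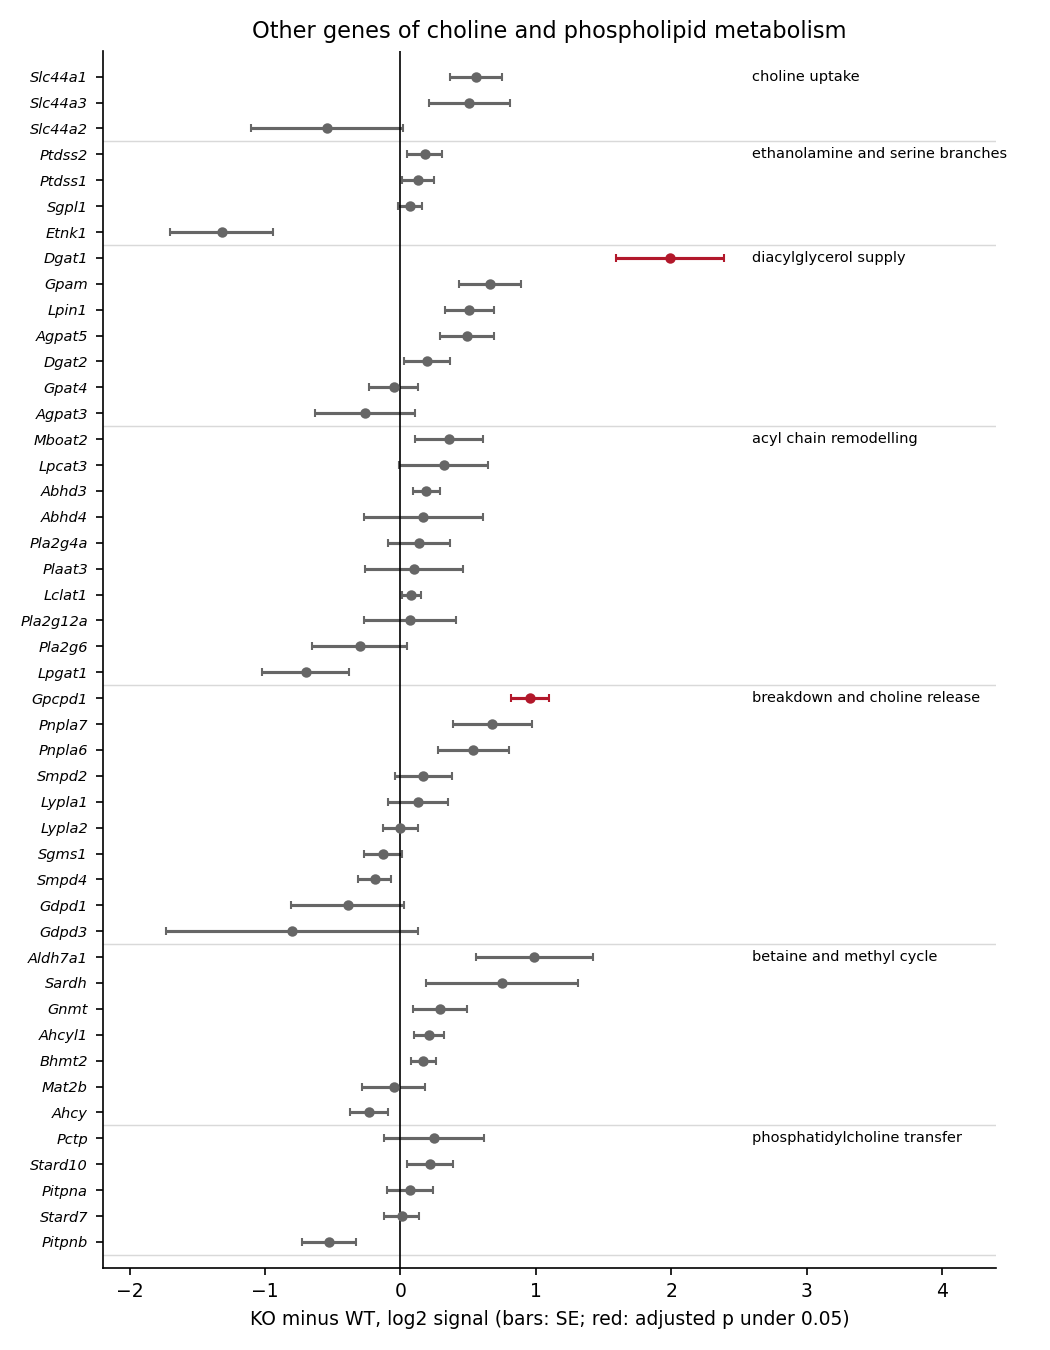
Log2 difference, KO minus WT (horizontal axis), with its SE as bars, of the 46 tested genes in 7 lists of choline and phospholipid metabolism that are not members. Red marks an adjusted p under 0.05. Dgat1 (1.99) and Gpcpd1 (0.96) are red, and Etnk1 (-1.32) is the lowest.

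Choline uptake was covered by 3 tested genes, of which 0 passed. The choline transporter-like gene Slc44a1 had a log2 difference of 0.56 (SE 0.19, limma adjusted p = 0.139) and Slc44a2 one of -0.54 (SE 0.56, adjusted p = 0.599). In the ethanolamine and serine branches 0 of 4 passed. Etnk1, the ethanolamine kinase that stands opposite choline kinase, had a difference of -1.32 (SE 0.38, adjusted p = 0.0822). It passed without wild-type tumour 2 (adjusted p = 0.034) and with array weights (adjusted p = 0.0486). Ptdss2, a phosphatidylserine synthase, had one of 0.18 (SE 0.13, adjusted p = 0.433). Besides Dgat1, 6 tested genes of diacylglycerol supply did not pass.

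Of the 10 acyl remodelling genes tested beside Lpcat1, 0 passed. Their differences lay between -0.70 and 0.36, with Lpgat1 at -0.70 (SE 0.32, limma adjusted p = 0.25) and the lysophospholipid acyltransferase Mboat2 at 0.36 (SE 0.25, adjusted p = 0.436). Of 10 genes of phosphatidylcholine breakdown and choline release, Gpcpd1 rose and 9 did not pass. In the betaine and methyl cycle 0 of 7 passed, with a range from -0.23 to 0.99. Aldh7a1, which oxidises the product of Chdh to betaine, had a difference of 0.99 (SE 0.43, adjusted p = 0.232), and Sardh, which acts on sarcosine, one of 0.75 (SE 0.56, adjusted p = 0.466). Wild-type tumour 2 was the lowest tumour of all for both, at 5.64 and 4.21, as it was for Chdh. Of 5 lipid transfer protein genes 0 passed, with Pitpnb at -0.53 (SE 0.20, adjusted p = 0.169) and Pctp, which binds phosphatidylcholine, at 0.25 (SE 0.37, adjusted p = 0.727).

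The genes most like Chpt1 and Chdh were looked for among the 6824 other genes tested, by Pearson correlation of deviations from the group means over the 12 arrays, which leaves out the genotype difference. For Chpt1 the closest were the carbonic anhydrase gene Car2 (r = 0.91, Spearman 0.92), Mob1b (r = 0.87, Spearman 0.89) and Vapa (r = 0.83, Spearman 0.80). Car2 was also higher in the knockout, at a mean of 8.62 against 6.55 in the wild type, and correlated with Chpt1 at 0.90 within the knockout and 0.92 within the wild type. For Chdh they were Cdca7l (r = 0.93, Spearman 0.98), the kinase gene Mknk1 (r = 0.92, Spearman 0.90) and Hsd3b7, an enzyme of bile acid synthesis (r = 0.88, Spearman 0.84). Hsd3b7 was lower in the knockout, unlike Chdh, at a mean of 3.44 against 5.18 in the wild type. That knockout mean is below the mean knockout background of 3.71. The log2 differences of the others were 0.17 for Mob1b, 0.27 for Vapa, -0.18 for Cdca7l and 0.02 for Mknk1. Without the 2 tumours farthest from the median of Chpt1 or Chdh, the correlations were 0.97, 0.82 and 0.70 for Chpt1 and 0.97, 0.70 and 0.77 for Chdh. Each is the highest of many, the arrays share tumours and RNA, and knockout tumours 4 and 5 lie close together, so the values are given as a description.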

How the data were processed

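Total RNA (Trizol) from tumours was labelled as biotinylated cRNA and read on Affymetrix mouse arrays, per the labels. The authors deposited log2 signals of 22690 probe sets on 12 arrays, made with GCRMA per the submitters' processing notes, with no version given there. The values were used as deposited, 0 columns were left unused, and the sources used here give neither scan date nor batch. GCRMA compresses differences of dim probe sets.

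Probe sets were named from the platform annotation, updated through a RefSeq gene table. Each gene was represented by the probe set with the highest mean over the 12 arrays and tested where that mean exceeded the median probe-set mean (3.98), with control probe sets left out. The test was limma 3.58.1 (lmFit, eBayes with trend) in R 4.3.3, with no term but genotype; p-values were adjusted by Benjamini-Hochberg over all genes or probe sets tested at 0.05. It was tested on simulated data first. Permutation tests were exact over all splits of 6 against 6, with a smallest p of 0.00216. Figures used matplotlib 3.10.9.

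The members, the 7 pathway lists, the 10 marker lists and several alternatives were chosen with earlier results of these data known. Named genes are all members, of each pathway list those past the threshold or else the 2 largest differences, and the 3 genes most like Chpt1 and Chdh. Thrsp, Adipoq, Csn2 and the other marker genes named were chosen after their values were seen. The replicate numbers of the titles were checked for pairing: the correlation of deviations between same-numbered arrays exceeded 0.1 in 2 of 6 pairs. This does not settle whether the numbers stand for pairs.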

Additional observations from a re-analysis of the deposited data

Results flagged for a closer look

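Of 58 groups of 6 values looked at (the probe sets of the members and of the pathway genes named), 10 held a value far from the rest, where chance gives about 1 in 20. Knockout tumour 1 was far above the other knockout tumours on 3 Chpt1 probe sets, at 11.25, 11.70 and 9.66, and for Sardh, at 8.11. Wild-type tumour 2 was far below the other wild-type tumours for Chdh, at 2.91, where the others lay between 5.42 and 6.26, and for Pctp, at 3.75, and far above them for Lpgat1, at 9.86. Knockout tumour 4 was far above the others for Pcyt2, at 5.34. For Pemt the flags were knockout tumour 3, at 2.10, and wild-type tumour 5, at 1.85, both below background. Chka, Chpt1, Chdh and Lpcat1 kept their calls without knockout tumour 1 and without wild-type tumour 2.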

How the results depend on the processing

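Of 14 alternatives and 12 fits leaving out 1 array, the sign of Chka, Chpt1, Chdh and Lpcat1 changed in none, and Lpcat1 kept its call in all 26, Chka in 25, Chpt1 in 23 and Chdh in 13. Chkb, between -0.59 and 0.80, and Cept1, between -0.08 and 0.17, kept no set sign and were never past the threshold. The count of genes past the threshold, 228, was 112 without a filter, 390 with array weights, 69 with the replicate block, 125 with knockout tumours 4 and 5 averaged, 72 with the beta-actin covariate, 22 with the adipocyte covariate, 104 with that covariate without Thrsp and 30 with the luminal covariate. Leaving out 1 array gave 95 to 212. The count of member genes, 4, was 1 with the adipocyte covariate, 2 with it without Thrsp and 2 with the luminal covariate, and that of member probe sets, 9, was 2, 5 and 5. The replicate block changed the call of 0 members. The count of other pathway genes, 2, was 1 above the 75th percentile of means, where Gpcpd1 was not tested, 0 with the replicate block, 0 with the beta-actin, adipocyte and luminal covariates and 1 (Slc44a1, which rose) with the adipocyte covariate without Thrsp. Leaving out 1 array gave 1 to 3. The cause of these shifts was not tested. Same-numbered arrays correlated between -0.02 and 0.14 in their deviations, with a mean of 0.07 against -0.02 for arrays of other numbers. Of the knockout arrays, 3 of 6 were closest to their own number. The labels name no pairing and these values do not settle whether there was one, so the block is given only as an alternative.

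Genes and lists that did not pass changed sign as follows. Slc44a2 was 0.59, 1.16 and 0.99 with the beta-actin, adipocyte and Thrsp-free adipocyte covariates, and Pctp -0.03, -0.08 and -0.34, and -0.04 to 0.44 leaving out 1 array. With median centring the lymphocyte, endothelial and hepatocyte sums were -0.04, -0.02 and -0.0022, and the mean of the lymphocyte log2 values was -0.0024. Leaving out 1 array gave -0.07 to 0.94 for milk, -0.16 to 0.09 for macrophage, -0.03 to 0.12 for lymphocyte and -0.58 to 1.02 for muscle markers. Signals near or below background, here Pcyt2, Pemt and Chdh in wild-type tumour 2, limit what the arrays can show.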

Other observations

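In the wild type the order of the 6 tumours by Chpt1 on 1435446_a_at was the same as their order by Thrsp, a lipid synthesis gene chosen after its values were seen. The order on 1426146_a_at was the same. It differed on 1455901_at, with wild-type tumour 2 (6.96) above tumour 6 (6.69), and on 1435870_at, with tumours 2, 4 and 5 tied at 4.50. Elf5 and Krt19 were also higher in wild-type tumours 2, 3 and 6 than in 1, 4 and 5. Thrsp had 8.11, 9.71, 10.09, 7.79, 5.37 and 9.99 in wild-type tumours 1 to 6, and between 9.96 and 12.03 in knockout tumours. In the knockout the order differed, since tumour 1 had the highest Chpt1 on 1435446_a_at and the lowest Thrsp.

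The tissue lists not described above differed as follows, as log2 of the summed signal. By an exact two-sided permutation test, before adjustment, the fibroblast sum differed by 0.65 (p = 0.0519), the basal sum by 0.42 (p = 0.21), the macrophage sum by -0.02 (p = 0.931) and the lymphocyte sum by 0.02 (p = 0.825). By the same exact test the endothelial sum differed by 0.04 (p = 0.55), the muscle sum by 0.56 (p = 0.807) and the hepatocyte sum by 0.05 (p = 0.223). At background on all 12 arrays were 5 of 9 lymphocyte, 6 of 8 endothelial, 5 of 6 hepatocyte, 4 of 10 fibroblast and 3 of 8 basal markers. Sums made mostly of such markers cannot show whether the cells differed. The muscle sum was 13.08 in knockout tumour 3 and between 6.09 and 6.66 in the other knockout tumours. Without knockout tumour 3 the muscle difference was -0.58. The 3′ excess of Gapdh was 0.11 higher in the knockout (exact permutation p = 0.0455, adjusted 0.125).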
